A study of Mus musculus with 24 samples.

Results

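Cerebellar tumours of Oligo1:GnasCKO mice were compared with normal adult mouse cerebellum across all genes, with attention to surface molecules, signalling pathways, metabolism and stroma. The comparison used all 8 arrays titled as Oligo1:GnasCKO tumours and all 5 arrays of normal adult cerebellum, 13 of the 24 arrays of the series. The tumours, called Oligo1 tumours here, carried the genotype Oligo1:GnasCKO on a mixed C57BL/6 x 129 background, and were recorded as biological replicates 1 to 8. The labels give no age for them beyond dissection at endpoint. The adult cerebella were wild type: the 2 of postnatal day 60 and 1 without a stated day had the mixed strain, and those of postnatal days 95 and 122 were C57BL/6. Adult values below are listed as postnatal day 60 (replicates 1 and 2), postnatal day 95, postnatal day 122 and the array without a day. Each array held biotin-labelled total RNA of 1 sample. The array names of tumours 5 to 8 contain the words Oligo1Cre, and which cells that driver reaches is not given in the sources used here. The closing observations also use the 8 tumours of hGFAP:GnasCKO mice, the second tumour line of the series, whose labels likewise give dissection at endpoint. No tumour with intact Gnas was among the samples, so the tumour state and the deletion cannot be told apart.

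Gnas encodes Gsα, the G protein subunit through which many surface receptors activate adenylyl cyclase and raise cyclic AMP, which restrains Hedgehog signalling through protein kinase A. The series title presents Gsα as a tumour suppressor in Sonic Hedgehog-driven medulloblastoma, a tumour of cerebellar granule neuron precursors. Granule neuron precursors divide in the young cerebellum and are absent from the adult one, which holds mature granule neurons, Purkinje cells, interneurons, Bergmann glia, oligodendrocytes and vessels. A bulk sample mixes all of these, and in such samples fewer cells of a type and less RNA per cell cannot be told apart.

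Values are log2 intensities, and a difference is the mean log2 level in Oligo1 tumours minus that in adult cerebellum, so that a difference of 1 is a 2-fold change. Gnas had log2 levels of 6.96, 7.96 and 8.41 in Oligo1 tumours (lowest, median and highest of the 8), against 9.83, 9.80, 9.69, 9.87 and 9.78 in adult cerebellum. Every tumour lay below every adult array. The difference was -1.97 (SE 0.29, 3.92-fold lower, limma adjusted p = 4.58e-06), and all 23 of its probe sets brighter than the table's median were lower in tumours. Markers of the labelled tissues mostly went with the labels. All 33 tested cell cycle genes were higher in tumours, and so were 17 of 23 tested granule precursor and Hedgehog genes. Of these 23, 3 were lower and 3 did not pass. All 14 tested markers of mature granule neurons were lower. Over all genes tested, 35.8% were higher and 34.5% lower.

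Several tumours stood apart from the rest. Tumours 7 and 8 were the nearest to adult cerebellum, with mean correlations across genes of 0.693 and 0.747 with the adult arrays, against 0.461 to 0.588 for tumours 1 to 6. The mean log2 level of the mature granule neuron list was 9.44 and 9.71 in tumours 7 and 8 and 6.82 to 7.66 in the other tumours, against 11.14 to 11.35 in adult cerebellum. Tumour 6 had the lowest array weight of the group, 0.198. Tumour 3 was rarely at either extreme. It was the highest tumour for 82 and the lowest for 301 of the 10963 genes tested, whereas each of the others was highest for 547 to 2560 genes and lowest for 855 to 2984. Its gene levels lay close to a weighted mean of tumours 1 (weight 0.423) and 4 (weight 0.577), with a residual SD of 0.149, against 0.239 to 0.578 for the best such pair of every other tumour. At the level of single probe sets the best pair of Oligo1 tumours and its weight were fitted again. The residual SD was then 0.399, against 0.464 to 0.69 for the other Oligo1 tumours, so tumour 3 was again the nearest to such a mean. Within 0.001 of it lay 0.353% of probe sets, against 0.159% to 0.289% for the others. The log2 values of tumour 3 are therefore not a copy of another Oligo1 tumour or an exact weighted mean of 2 of them. A pool of RNA need not give such an exact mean. Whether it shares tissue or RNA with another tumour was not tested. Results are therefore also given without tumours 7 and 8, or without tumour 3, where this changes a call or moves a called value or count by over 1.5 times. Without tumour 3 no named gene reached either limit. Without tumours 7 and 8 the fold moved by over 1.5 times for 14 named genes, all of which were then lower still. Calb1 was at -6.14, Arhgef33 at -5.61, Dgkg at -5.16, St8sia5 at -5.09, Inpp5j at -4.95, Scn2b at -4.93, Nefl at -4.86 and Dao at -4.83. Eno2 was at -4.79, Slc12a5 at -4.76, Kcnip4 at -4.74, Car4 at -4.67, Slc6a17 at -4.55 and Cacna2d2 at -4.30.

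Of the 10963 genes bright enough to test, 7703 (70.3%) passed limma's test at an adjusted p under 0.05. Of these, 3923 (35.8% of all tested) were higher and 3780 (34.5%) lower in Oligo1 tumours. At least 2-fold changes made up 29.3% of all genes, 1550 higher and 1666 lower, and the 8 tumours and 5 adult arrays did not overlap for 51.4%. With so many genes past the threshold, a list with a like share of its members past it does not stand out from the rest of the array, so each list is given with its share of genes that passed with at least a 2-fold change (called the 2-fold share below), to be read against 29.3%. Of the higher genes 1148 had every adult array, and of the lower genes 618 every tumour, below the filter value of 7.61 (the median of the whole table). Such genes entered the test only through the group in which they are high, and their counts in a list carry no weight of their own. The median difference over all genes was 0.04. Array names fall into an earlier run of numbers (tumours 1 to 4 and 3 adult arrays) and a later one (tumours 5 to 8 and the 2 arrays of postnatal day 60). Within the earlier run 7773 genes passed and within the later one 5137. Of the genes named below, Aldoc, Bmp6, Calb1, Cbs, Flt1, Kcnj13, Nefl, Ptgds and Rpia did not pass within the later run, where 4 tumours met 2 adult arrays, and kept their direction. Leaving out tumours 7 and 8 gave 7617 genes, and leaving out tumour 3 gave 7473.

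The largest rises outside the cell cycle and lineage lists included genes of hormone handling and axon guidance, and Lcn2 and Gpnmb, which are described below. Hsd11b2, the enzyme that inactivates glucocorticoids, had log2 levels of 10.41, 11.03 and 11.67 in Oligo1 tumours, against 5.53, 5.25, 5.39, 5.16 and 5.62 in adult cerebellum. The groups were far apart, with the lowest tumour 4.78 above the highest adult array (difference 5.69, SE 0.47, adjusted p = 1.08e-08). Sstr2, a somatostatin receptor that couples to inhibitory G proteins, had levels of 9.98, 11.69 and 11.92 in Oligo1 tumours, against 6.02, 5.60, 5.98, 6.01 and 6.21 in adult cerebellum. Tumour 6 was the lowest and the other tumours lay at 11.15 or above (difference 5.48, SE 0.51, adjusted p = 3e-08). Draxin, a secreted axon guidance protein, and Dcc, the netrin receptor that it binds, rose by 5.29 and 5.24. Genes of cell division outside that list were also among the 20 largest rises, such as Knl1, a kinetochore scaffold (5.54), Foxm1, a transcription factor of mitotic genes (5.32), and Ube2c, a ubiquitin carrier of the anaphase-promoting complex (5.36). All adult arrays lay below the filter value of 7.61 for each of the 20, so these adult levels are near the low end of the array and the differences may be understated.

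Outside the lineage lists the 20 largest falls were -4.62 (Arhgef33) to -3.95 (Car4, a membrane-bound carbonic anhydrase). They included Slc12a5, the potassium chloride cotransporter that sets neuronal chloride (-4.08), Nefl, the light neurofilament (-4.00), Kcnip4, a potassium channel partner (-4.08), Shisa6, an auxiliary protein of AMPA receptors (-4.13), and Inpp5j, an inositol phosphatase (-4.15). Tumours 7 and 8 were the 2 highest tumours for 19 of these 20 genes. Over all 1666 genes that were at least 2-fold lower they were the 2 highest tumours for 802 (48.1%). For the 1550 that were at least 2-fold higher that count was 4. There the tumour nearest to adult cerebellum is the lowest one, which was tumour 8 for 613 genes and tumour 7 for 194. The part of remaining neurons in these levels was not tested.

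**Figure D1:**
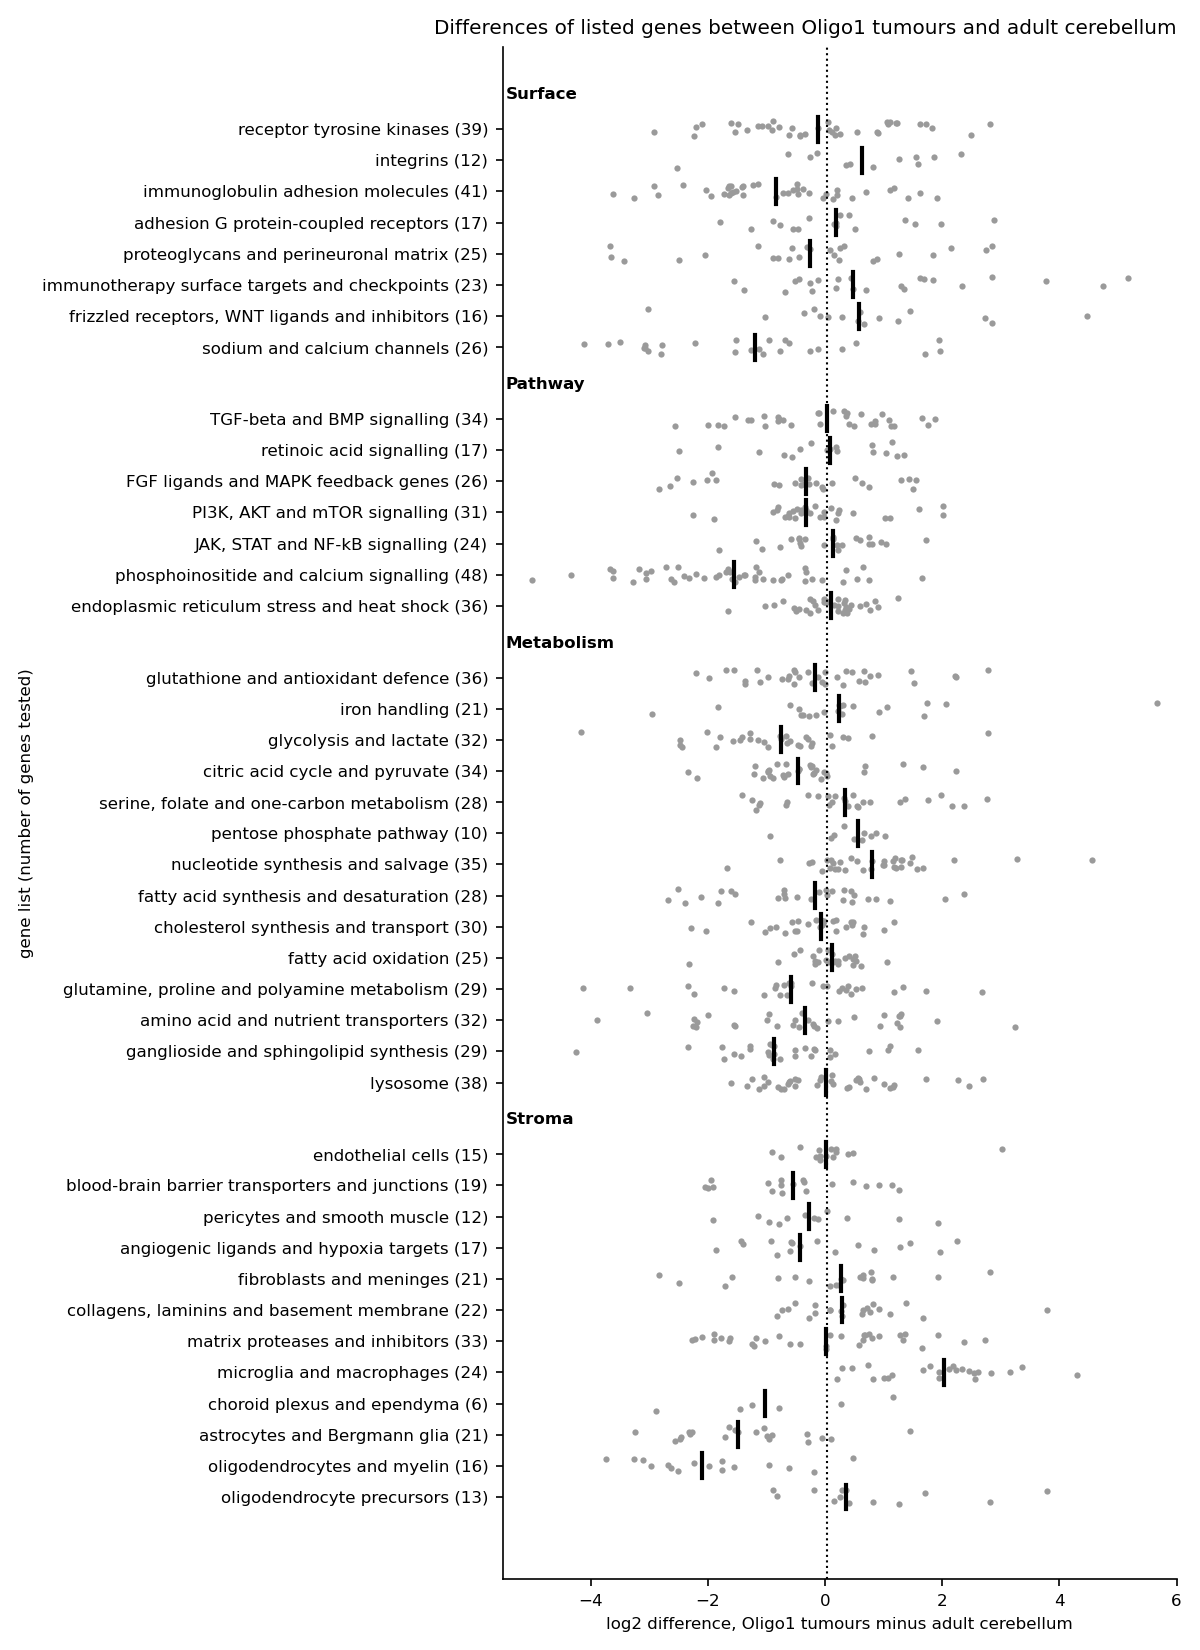
Differences of the tested genes of each list (log2 level in Oligo1 tumours minus adult cerebellum), one grey point per gene, with the list's median as a black bar. Lists are grouped by theme, and the dotted line marks the median of all 10963 genes (0.04). The microglia and macrophage list lies to the right (median 2.03), and the myelin list (median -2.11) and the phosphoinositide and calcium list (median -1.56) lie to the left.

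Of the surface, pathway, metabolism and stroma themes, surface molecules had the largest 2-fold share. Of 197 tested genes in 8 lists, 57 were higher, 88 lower and 52 did not pass, and 52.3% had passed with at least a 2-fold change, against 29.3% of all genes. Among molecules studied as targets of antibodies or cell therapy, 11 of 23 tested genes were higher and 5 lower, with a median difference of 0.48 and a 2-fold share of 52.2%. Gpnmb, a transmembrane glycoprotein that is the target of an antibody-drug conjugate and is also made by macrophages, had log2 levels of 10.68, 11.19 and 11.46 in Oligo1 tumours, against 6.34, 6.53, 4.86, 5.89 and 6.18 in adult cerebellum. The groups were separated by 4.15 (difference 5.16, SE 0.42, adjusted p = 8.21e-09). Cd24a, a small glycosylated anchor protein of immature neurons, had levels of 11.16, 11.56 and 11.72 in Oligo1 tumours, against 6.45, 6.00, 6.26, 7.18 and 7.88 in adult cerebellum. The tumours varied less than the adult arrays (SD 0.20 against 0.77; difference 4.74, adjusted p = 1.22e-08). Cxcr4, the receptor of the chemokine Cxcl12 that holds granule precursors under the meninges, rose by 3.77, and its 8 tumours lay between 9.83 and 10.35, against 5.97 to 6.63 in adult cerebellum. Cd47, the signal that restrains phagocytosis, had levels of 9.33, 10.10 and 10.66 in Oligo1 tumours, against 11.50, 11.74, 11.71, 11.63 and 11.78 in adult cerebellum. Every tumour lay below every adult array (difference -1.55, SE 0.23, adjusted p = 3.86e-06). Its receptor Sirpa fell by 1.39 as well, and Nt5e, an ectonucleotidase that makes adenosine, did not pass (0.19).

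Of 39 tested receptor tyrosine kinases 13 were higher and 17 lower, with a 2-fold share of 51.3%. Pdgfra, the receptor of platelet-derived growth factor A and a marker of oligodendrocyte precursors and fibroblasts, had log2 levels of 10.08, 10.58 and 10.78 in Oligo1 tumours, against 7.85, 7.88, 7.12, 7.73 and 7.94 in adult cerebellum. The groups did not overlap and all 24 brighter probe sets rose (difference 2.81, SE 0.37, adjusted p = 1.27e-06). Ddr2, a collagen receptor, rose by 2.49, Egfr by 1.82 and Ror2, a Wnt5a receptor, by 1.73. Flt3 had levels of 5.28, 5.58 and 6.81 in Oligo1 tumours, against 8.57, 8.44, 8.33, 9.25 and 8.92 in adult cerebellum. The highest were tumours 7 and 8, yet below every adult array (difference -2.93, adjusted p = 2.47e-06). Kit, a receptor of cerebellar interneurons, fell by 2.20, and Epha6 fell by 2.23. For Epha6 all arrays of both groups lay below the filter value (at most 7.49, in adult cerebellum). The insulin receptor gene Insr (0.05) and Epha7 (0.07) did not pass.

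The integrin list held 6 higher and 2 lower genes of 12 tested, and its 2-fold share was 50.0%. Itga9, a receptor of tenascin and other matrix proteins, had log2 levels of 7.75, 8.45 and 8.88 in Oligo1 tumours, against 6.14, 6.05, 5.79, 6.06 and 6.37 in adult cerebellum. Tumour 7 was the lowest tumour and still 1.38 above the adult arrays (difference 2.32, SE 0.28, adjusted p = 4.06e-07). Itgb2, the leukocyte integrin beta chain, rose by 1.86, and Itgb1, the common beta chain, by 1.55. Itga3, a laminin receptor chain, had levels of 5.53, 6.05 and 7.33 in Oligo1 tumours, against 8.85, 8.82, 8.67, 8.75 and 8.86 in adult cerebellum. Again tumours 7 and 8 were the highest (difference -2.52, adjusted p = 2e-06).

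Adhesion molecules of the immunoglobulin family were mostly lower: 26 of 41 tested fell, 6 rose, the median difference was -0.83 and the 2-fold share 61.0%. Cntn6, a contactin of granule cell axons, had log2 levels of 5.25, 6.57 and 8.55 in Oligo1 tumours, against 10.12, 10.24, 10.49, 10.04 and 10.33 in adult cerebellum. The tumours spread widely and none reached the adult range (difference -3.62, SE 0.49, adjusted p = 1.65e-06). Thy1, a neuronal surface glycoprotein, fell by 2.91 and Kirrel3 by 2.85. Igsf9 (1.92), Sdk1 (1.62) and Icam1, the ligand of leukocyte integrins (1.42), rose. Among adhesion G protein-coupled receptors 5 of 17 rose and 6 fell (2-fold share 35.3%). The largest rise was that of Adgre1, a macrophage marker (2.89), and Celsr1, a planar polarity cadherin, rose by 1.54. The largest fall of the list was -1.8.

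Among proteoglycans and perineuronal matrix genes 7 of 25 were higher and 11 lower (2-fold share 44.0%). Gpc2, a glypican of immature neurons, had log2 levels of 7.61, 8.97 and 9.14 in Oligo1 tumours, against 5.80, 5.50, 6.09, 6.18 and 6.05 in adult cerebellum. Tumour 6 was the lowest tumour, 1.44 above the adult arrays (difference 2.84, SE 0.43, adjusted p = 5.34e-06; 3 probe sets). Gpc3, a second glypican, rose by 2.74, Ncan, the chondroitin sulfate proteoglycan neurocan, 4.44-fold, and Has2, a hyaluronan synthase, by 1.84. The link proteins of mature perineuronal and perinodal matrix fell (Hapln4 -3.65 and Hapln2 -2.50), and so did the testicans Spock3 (-3.67), Spock1 (-3.42) and Spock2 (-2.05).

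In the list of frizzled receptors, WNT ligands and inhibitors, 8 of 16 tested genes were higher and 2 lower (2-fold share 43.8%). A further 29 of its genes were too dim to test. Sfrp1, a secreted WNT inhibitor that Hedgehog signalling induces, had log2 levels of 11.27, 11.83 and 12.14 in Oligo1 tumours, against 7.38, 7.42, 6.19, 6.71 and 8.85 in adult cerebellum. The adult array without a day was the highest of its group and lay 2.42 below the lowest tumour (difference 4.47, adjusted p = 1.11e-07). Sfrp2 rose by 2.73 and the receptor Fzd2 by 2.85. Wnt7a, a ligand made by mature granule neurons, had levels of 5.03, 5.70 and 7.30 in Oligo1 tumours, against 9.41, 8.73, 9.09, 8.77 and 8.98 in adult cerebellum, and its groups did not overlap (difference -3.03, adjusted p = 6.03e-07).

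Of 26 tested sodium and calcium channel genes 19 were lower and 3 higher, with a median difference of -1.20 and a 2-fold share of 69.2%. Scn2b, a beta subunit of adult sodium channels, had log2 levels of 4.78, 6.32 and 9.25 in Oligo1 tumours, against 10.81, 10.94, 11.07, 10.74 and 10.68 in adult cerebellum. Tumours 7 and 8, at 9.04 and 9.25, stood well above tumours 1 to 6, at 4.78 to 7.26 (difference -4.12, SE 0.65, adjusted p = 9.24e-06). Cacna2d2, a calcium channel auxiliary subunit of Purkinje cells, fell by 3.70 and Cacna1g, a T-type channel, by 3.51. The 3 that rose were Scn3a, a sodium channel of the developing brain (1.96), Scn3b (1.95) and Cacna2d1 (1.71). Scn3b had levels of 8.74, 9.13 and 9.66 in Oligo1 tumours, against 6.80, 7.50, 6.91, 7.18 and 7.67 in adult cerebellum, and its groups did not overlap.

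**Figure D2:**
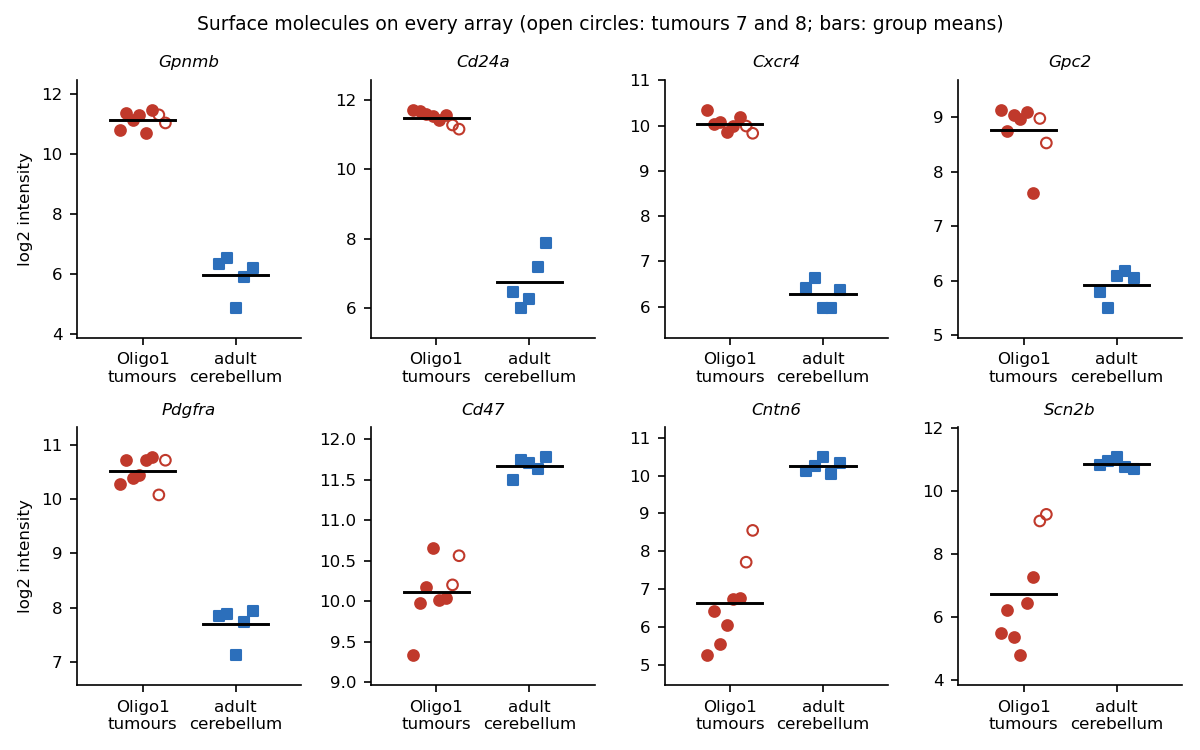
Log2 level of 8 surface molecules on every array, Oligo1 tumours (8 points, left) and adult cerebellum (5 points, right), with group means as bars. The groups do not overlap for any of the 8. Gpnmb, Cd24a, Cxcr4, Gpc2 and Pdgfra are higher in all tumours, and Cd47, Cntn6 and Scn2b lower, with tumours 7 and 8 (open circles) the nearest to adult cerebellum for Cntn6 and Scn2b.

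Of the pathway lists, phosphoinositide and calcium signalling changed most. Of its 48 tested genes 38 were lower and 3 higher, 70.8% had passed with at least a 2-fold change, and the median difference was -1.56. Calb1, the calcium buffer calbindin of Purkinje cells, had log2 levels of 4.41, 7.20 and 10.97 in Oligo1 tumours, against 12.43, 12.46, 12.45, 12.31 and 12.25 in adult cerebellum. Tumours 7 and 8, at 10.55 and 10.97, lay nearest to adult cerebellum (difference -5.01, SE 0.96, adjusted p = 9.04e-05). Dgkg, a diacylglycerol kinase (-4.33), Atp2a3, a calcium pump of the endoplasmic reticulum (-3.67), and Calb2, the calretinin of granule cells (-3.63), also fell. For 25 of the 48 genes tumours 7 and 8 were the 2 highest tumours. Hpca, the neuronal calcium sensor hippocalcin, went the other way, with levels of 11.63, 12.03 and 12.32 in Oligo1 tumours, against 10.45, 10.33, 10.00, 10.53 and 10.47 in adult cerebellum. All tumours lay above all adult arrays (difference 1.66, SE 0.20, adjusted p = 3.92e-07). Plcg1, the phospholipase C of receptor tyrosine kinases, rose by 0.75, and Plcb1 did not pass (-0.06).

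The TGF-beta and BMP list had 15 higher and 12 lower genes of 34 tested (2-fold share 41.2%). Tgfbr1, a type I receptor, had log2 levels of 7.96, 8.70 and 9.43 in Oligo1 tumours, against 7.07, 6.82, 6.80, 6.84 and 7.15 in adult cerebellum. Tumours 1 to 4, at 8.97 to 9.43, were above tumours 5 to 8, at 7.96 to 8.44 (difference 1.76, SE 0.31, adjusted p = 3.04e-05). Tgfbi, a target of the pathway, rose by 1.87 and Tgfb2 by 1.17. The largest falls of the list were those of Gdf10, a ligand of Bergmann glia (-2.57), Id4, an inhibitor of helix-loop-helix factors (-1.99), Bmp6 (-1.82) and Smad9, a BMP effector (-1.73). BMP genes also went up, the targets Id1 (1.09) and Id3 (0.86) among them, and TGF-beta genes also went down, such as Tgfbr3 (-1.54) and Tgfb3 (-1.31). These 4 were chosen after their values were seen. In the PI3K, AKT and mTOR list 6 of 31 rose and 17 fell, and 22.6% had passed with at least a 2-fold change. Irs1, the adaptor of insulin and IGF receptors, had levels of 10.03, 10.32 and 10.53 in Oligo1 tumours, against 8.37, 8.23, 8.16, 8.30 and 8.46 in adult cerebellum. No tumour overlapped the adult arrays (difference 2.01, SE 0.25, adjusted p = 5.36e-07). Eif4ebp1, the translation repressor that mTOR phosphorylates, rose by 2.01 and Inpp5d, a phosphatase of blood cells, by 1.60. Inpp4b, a lipid phosphatase, fell by 2.26 and Inpp4a by 1.89.

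In the remaining pathway lists members moved in both directions. Of FGF and MAPK feedback genes 6 of 26 rose and 11 fell (2-fold share 42.3%). The phosphatases Dusp4 and Dusp6, which MAPK signalling induces, rose by 1.56 and 1.30, and the intracellular FGF homologues Fgf11, Fgf12 and Fgf14, which bind sodium channels, fell (-2.64, -2.26 and -2.53), while the fourth of them, Fgf13, did not pass (-0.51). Of retinoic acid genes 5 of 17 rose and 6 fell (2-fold share 41.2%), among them Crabp1, a retinoic acid binding protein (1.35), Rara, a receptor, which fell by 1.84, and Aldh1a1, a retinaldehyde dehydrogenase, which fell by 2.49. The JAK, STAT and NF-kB list had a 2-fold share of 20.8%, and 8 of its 24 genes rose, led by Osmr, the oncostatin M receptor (1.72), and 9 fell, led by Stat5b (-1.81). The endoplasmic reticulum stress and heat shock list had the smallest share of strong changes among pathways: 13 of 36 rose and 9 fell, and 8.33% had passed with at least a 2-fold change. Pdia4, a protein disulfide isomerase, rose by 1.25, and the sensor Eif2ak3 (0.00) and the chaperone Hspa8 (-0.01) did not pass.

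Across 14 metabolic lists, 129 of 405 tested genes were higher and 173 lower, and 34.8% had passed with at least a 2-fold change. Nucleotide synthesis and salvage genes were mostly higher, with 23 of 35 genes higher, 2 lower, a median difference of 0.80 and a 2-fold share of 42.9%. Rrm2, the cell cycle-regulated subunit of ribonucleotide reductase, had log2 levels of 9.03, 9.88 and 10.24 in Oligo1 tumours, against 5.18, 5.33, 4.70, 5.51 and 5.18 in adult cerebellum. The lowest tumour, tumour 6, was 3.52 above the highest adult array (difference 4.55, SE 0.50, adjusted p = 1.42e-07). Tk1, the S-phase thymidine kinase, rose by 3.27, Rrm1 by 2.20 and Ctps, CTP synthase, by 1.68. Rrm2b, the alternative subunit of resting cells, did not pass (0.03). Adssl1, an adenylosuccinate synthase known from muscle, fell by 1.68. Slc29a1, the equilibrative nucleoside transporter, had levels of 11.04, 11.35 and 11.54 in Oligo1 tumours, against 7.97, 7.94, 8.43, 7.99 and 8.05 in adult cerebellum. Both groups were tight (SD 0.15 and 0.20) and 2.61 apart (difference 3.24, SE 0.45, adjusted p = 1.87e-06). That SE uses the spread shared by all 4 fitted groups of the series, not the spread of these alone.

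The promoter of Rrm2 is shown because it leads this list, and the CCAAT box, bound by the factor NF-Y, is a common element of cell cycle promoters. The sequence is RefSeq's on GRCm38.p6, chr12:24708004-24708303, plus strand, 250 bases before to 50 after the gene's start, with the CCAAT in capitals.
Rrm2: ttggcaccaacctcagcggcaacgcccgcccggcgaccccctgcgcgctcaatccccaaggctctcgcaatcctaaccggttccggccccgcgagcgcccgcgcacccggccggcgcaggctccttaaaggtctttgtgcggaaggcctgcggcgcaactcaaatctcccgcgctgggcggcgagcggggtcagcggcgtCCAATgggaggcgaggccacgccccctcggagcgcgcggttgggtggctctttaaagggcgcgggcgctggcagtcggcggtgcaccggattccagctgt
The CCAAT begins 50 bases before the start. CCAAT, on either strand, was in 41.1% of 27025 promoters of this length, and in 9 of the 22 promoters found for the nucleotide genes that rose (40.9%), a share like that of all promoters. This was 1 of 10 motifs searched after the values were seen.

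Serine, folate and one-carbon metabolism had 13 higher and 8 lower genes of 28 tested (2-fold share 42.9%). Tyms, thymidylate synthase, had log2 levels of 8.84, 9.34 and 10.07 in Oligo1 tumours, against 6.25, 6.65, 6.14, 6.84 and 7.51 in adult cerebellum. Tumours 1 to 3 were the highest and no tumour overlapped the adult arrays (difference 2.76, SE 0.49, adjusted p = 3.56e-05). Shmt1, the cytosolic serine hydroxymethyltransferase, rose by 2.38, and the mitochondrial folate enzymes Mthfd2l and Mthfd2 by 2.16 and 1.99. Among the falls were Cbs, of transsulfuration (-1.41), Gldc, of the glycine cleavage system (-1.24), and Aldh1l1, formyltetrahydrofolate dehydrogenase and an astrocyte marker (-1.18). The pentose phosphate list rose in 6 of its 10 tested genes, including Tkt, transketolase (0.66), Rpia (0.78) and Pgls (0.87), mostly by less than 2-fold (10% had passed with at least a 2-fold change).

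Glycolysis genes were mostly lower: 24 of 32 fell, 3 rose, the median difference was -0.76 and the 2-fold share 46.9%. Hk2, the inducible hexokinase, had log2 levels of 8.44, 8.69 and 9.07 in Oligo1 tumours, against 6.21, 5.73, 5.54, 6.35 and 5.84 in adult cerebellum. All tumours were above all adult arrays by at least 2.09 (difference 2.78, SE 0.39, adjusted p = 2.17e-06). Hk1, the constitutive hexokinase of brain, fell by 1.86 (adjusted p = 1.34e-05). Eno2, the neuronal enolase, had levels of 5.97, 6.97 and 9.65 in Oligo1 tumours, against 12.10, 12.08, 11.67, 11.77 and 11.91 in adult cerebellum. Tumours 6 to 8, at 9.27 to 9.65, were well above tumours 1 to 5, at 5.97 to 7.08 (difference -4.17, SE 0.64, adjusted p = 6.56e-06). Pfkp, a phosphofructokinase, fell by 2.48 and Aldoc, the aldolase of astrocytes and Purkinje cells, by 2.47. Ldhb, the lactate dehydrogenase chain of oxidative cells, fell by 1.45, and Ldha did not pass (0.30, adjusted p = 0.112). Hk1, Ldha and Ldhb were chosen after their values were seen.

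Of 34 citric acid cycle and pyruvate genes 20 were lower and 5 higher (2-fold share 23.5%). Ogdhl, a brain form of 2-oxoglutarate dehydrogenase, fell by 2.33 and Me3, a mitochondrial malic enzyme, by 2.18. The mitochondrial aspartate-glutamate carriers diverged: Slc25a12, the neuronal one, fell by 1.22, whereas Slc25a13 had log2 levels of 8.02, 8.47 and 9.35 in Oligo1 tumours, against 6.06, 6.30, 5.70, 6.37 and 6.90 in adult cerebellum. Its groups did not overlap, and tumour 1 was the highest (difference 2.23, SE 0.22, adjusted p = 4.15e-08). Idh2 and Idh1, the isocitrate dehydrogenases that make NADPH, rose by 1.67 and 1.33. Pdha1 (0.01) and Sdhb (-0.02) did not pass. In fatty acid oxidation 10 of 25 genes passed (40%), against 70.3% of all genes, and the 2-fold share was 8.0%. Of the 10 that passed 6 rose and 4 fell. At least 2-fold were 1 rise, of 1.06, and 1 fall, that of Ppargc1a, a coactivator of mitochondrial genes (-2.32).

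In glutamine, proline and polyamine metabolism 10 of 29 genes rose and 15 fell (2-fold share 37.9%). Pycr1, the last enzyme of proline synthesis, had log2 levels of 8.35, 9.62 and 9.91 in Oligo1 tumours, against 6.71, 6.69, 7.49, 6.46 and 6.48 in adult cerebellum. Tumour 6 was the lowest tumour and the postnatal day 95 array the highest adult one, and they did not overlap (difference 2.68, SE 0.40, adjusted p = 4.58e-06). Odc1, the first enzyme of polyamine synthesis, rose by 1.72 and Aldh18a1, of proline synthesis, by 1.33. Dao, the D-amino acid oxidase of Bergmann glia, had levels of 4.43, 4.67 and 7.61 in Oligo1 tumours, against 9.61, 9.73, 9.31, 9.28 and 9.40 in adult cerebellum. Tumours 1 to 6 lay at 4.43 to 4.92 and tumours 7 and 8 at 7.21 and 7.61 (difference -4.14, SE 0.62, adjusted p = 5.08e-06). Among 32 tested transporters 10 rose and 17 fell (2-fold share 50.0%). The amino acid exchangers Slc7a5, Slc1a5 and Slc7a7 rose by 1.26, 1.30 and 1.91. Slc6a17, of synaptic vesicles, fell by 3.89 and the glycine transporters Slc6a5 and Slc6a9 by 3.04 and 2.24.

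**Figure D3:**
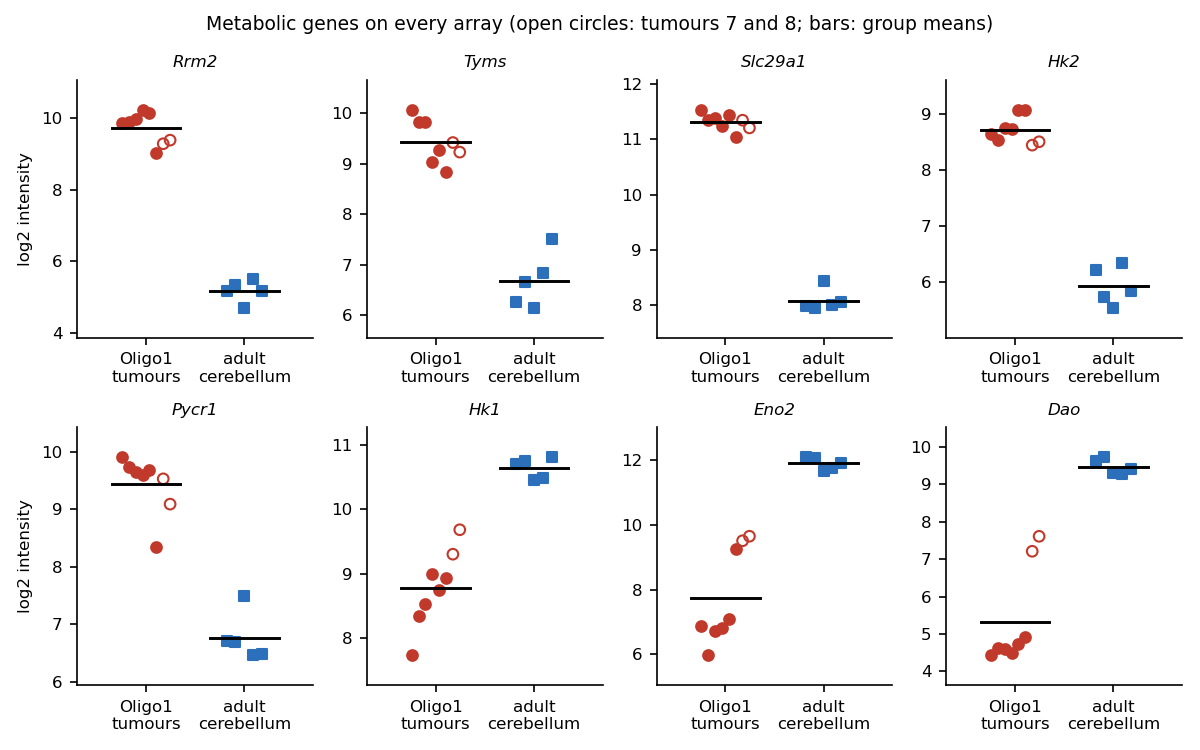
Log2 level of 8 metabolic genes on every array, Oligo1 tumours (8 points, left) and adult cerebellum (5 points, right), with group means as bars. Rrm2, Tyms, Slc29a1, Hk2 and Pycr1 are higher in every tumour than in every adult array, and Hk1, Eno2 and Dao are lower in every tumour. The open circles (tumours 7 and 8) are among the 3 highest tumours for Eno2 and the highest for Dao.

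Lipid genes moved in both directions. In fatty acid synthesis and desaturation 8 of 28 rose and 14 fell (2-fold share 39.3%). Srebf1, the transcription factor of lipid synthesis genes, had log2 levels of 9.23, 9.67 and 10.49 in Oligo1 tumours, against 7.77, 7.93, 7.30, 7.65 and 7.93 in adult cerebellum, with no overlap (difference 2.04, SE 0.32, adjusted p = 7.87e-06). Lpl, lipoprotein lipase, rose by 2.38. Scd1, a desaturase, fell by 2.39 and Fa2h, the fatty acid hydroxylase of myelin lipids, by 2.69. Of cholesterol genes 18 of 30 passed (60%, 2-fold share 20%), 6 higher and 12 lower. Abca1, an exporter, rose by 1.17, and Cyp46a1, the neuronal cholesterol hydroxylase, fell by 2.28. The synthesis enzymes Idi1 (-0.02) and Lss (-0.03), the 2 members nearest 0, did not pass, whereas other synthesis enzymes of the list rose. Ganglioside and sphingolipid genes were mostly lower, 19 of 29, against 4 higher (2-fold share 37.9%), with St8sia5, a sialyltransferase of complex gangliosides, lower by 4.25 on the log2 scale (-4.25).

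Among antioxidant genes 12 of 36 rose and 17 fell (2-fold share 36.1%). Txnip, an inhibitor of thioredoxin that glucose induces, had log2 levels of 9.76, 10.23 and 11.62 in Oligo1 tumours, against 7.68, 7.92, 7.04, 7.67 and 7.76 in adult cerebellum. All tumours were higher, tumour 6 the most (difference 2.78, SE 0.27, adjusted p = 3.71e-08). Prdx4, a peroxiredoxin of the endoplasmic reticulum, rose by 2.23, and Hmox1, heme oxygenase, by 1.52. Slc7a11, the cystine transporter, fell by 1.55 and Mgst3 by 2.21, while Gpx4 (-0.01) and Sod1 (0.01) did not pass. In iron handling 8 of 21 rose and 5 fell (2-fold share 33.3%). Lcn2, a siderophore-binding acute phase protein, had levels of 9.03, 10.78 and 12.11 in Oligo1 tumours, against 4.75, 5.73, 4.66, 5.29 and 5.29 in adult cerebellum. Tumour 1 was the lowest tumour, 3.30 above the adult arrays, and tumour 6 the highest (difference 5.67, SE 0.41, adjusted p = 2.3e-09). Cp, ceruloplasmin, rose by 2.06 and Steap2, a metalloreductase, fell by 2.95.

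The lysosome list split evenly, with 16 of 38 genes higher and 16 lower (2-fold share 36.8%). The cathepsins led the rises, Ctsc by 2.70, Ctss by 2.46, Ctsh by 2.27 and Ctsz by 1.72, and the falls included those of Gaa, the acid glucosidase of glycogen (-1.60), and Manba, a mannosidase (-1.13). The highest of the 8 tumours was tumour 4 for 19 of the 38 genes. Tumour 4 also had the highest macrophage list level, and the part of macrophages in these lysosomal levels was not tested.

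In the stroma lists 68 of 210 tested genes were higher and 83 lower, and 45.7% had passed with at least a 2-fold change. Microglia and macrophage genes were mostly higher: 21 of 24 tested rose, none fell, 19 rose at least 2-fold, and the median difference was 2.03. A further 8 listed genes were too dim to test, Tmem119 among them. All adult arrays lay below the filter value for 15 of the 24, which therefore passed the filter through tumours of either line or developing cerebellum. When genes were kept by their mean over the 13 arrays instead, 9131 genes were tested, of which 3263 were higher and 3043 lower. Of the listed macrophage genes then kept, whose number is not given here, 15 rose and none fell. The mean log2 level of the list was 8.54 to 9.65 in Oligo1 tumours, highest in tumour 4, against 6.70 to 7.31 in adult cerebellum. Tumour 4 was the highest tumour for 21 of the 24 genes. Lyz2, lysozyme, had levels of 11.21, 11.73 and 12.20 in Oligo1 tumours, against 7.08, 7.94, 6.56, 7.24 and 8.29 in adult cerebellum. The highest adult array stayed 2.91 below the lowest tumour (difference 4.30, SE 0.53, 19.8-fold higher, adjusted p = 5.76e-07). Mpeg1, a pore-forming macrophage protein, rose by 3.36, C1qc, a chain of complement C1q, by 3.16 and Cd68, a lysosomal macrophage marker, by 2.83. Spi1, the ETS factor PU.1 of myeloid cells, which was chosen after its values were seen, rose by 2.19. P2ry12, a purinergic receptor of resting microglia, had levels of 7.22, 7.44 and 8.55 in Oligo1 tumours, against 7.57, 7.13, 7.31, 7.38 and 7.44 in adult cerebellum. The groups overlapped and it did not pass (0.21, adjusted p = 0.517), and neither did Selplg (0.28).

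The C1qc promoter is shown because C1qc is among the leading macrophage genes and PU.1 binds purine-rich GAGGAAGT elements. The sequence is RefSeq's on GRCm38.p6, chr4:136892865-136893164, minus strand, 250 bases before to 50 after the gene's start, with the match in capitals.
C1qc: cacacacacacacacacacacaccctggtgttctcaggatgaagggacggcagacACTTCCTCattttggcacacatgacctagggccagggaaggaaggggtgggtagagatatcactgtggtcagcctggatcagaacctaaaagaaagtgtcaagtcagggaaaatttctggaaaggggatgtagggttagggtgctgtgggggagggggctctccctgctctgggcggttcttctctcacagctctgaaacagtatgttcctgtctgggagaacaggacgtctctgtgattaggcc
The capitals are ACTTCCTC, the reverse complement of GAGGAAGT, and begin 195 bases before the start. GAGGAAGT, on either strand, was in 3.69% of the 27025 promoters and in 2 of 17 promoters found for the macrophage genes that rose, those of C1qc and Ctss. Its inner part GGAAGT, which overlaps it, was in 26.5% of all promoters and in 9 of the 17 (52.9%). These motifs were among the 10 searched after the values were seen, and a match is not evidence of binding.

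The vessel genes bright enough to test showed no such shift, and 10 listed endothelial genes were too dim. Of 15 tested endothelial genes 4 passed (26.7%, against 70.3% of all genes), 2 in each direction, the 2-fold share was 6.67% and the median difference 0.02. Cldn5, the tight junction claudin of brain vessels, rose by 0.47 (adjusted p = 0.0351) but did not pass when tumour 2, 7 or 8 or an adult array of postnatal day 60 was left out (0.38 to 0.46). Flt1 fell by 0.90, and Eng (-0.08) and Esam (0.02) did not pass. Sox18, a transcription factor of vessels, was the exception in size, with log2 levels of 7.85, 10.04 and 10.52 in Oligo1 tumours, against 6.72, 6.21, 7.35, 6.86 and 6.90 in adult cerebellum. Tumour 6 was far below the other tumours and 0.50 above the adult arrays (difference 3.02, SE 0.47, adjusted p = 8.8e-06; 2 probe sets). Blood-brain barrier genes were lower in 10 of 19 and higher in 5 (2-fold share 31.6%), with Ocln, occludin, falling by 1.95 and Slc22a8, an organic anion transporter, by 1.91. Of 12 tested pericyte and smooth muscle genes (2-fold share 33.3%) 2 rose, Foxf2 (1.93) and Cspg4 (1.26), and 5 fell, among them Pdgfrb by 0.78. A further 8 of that list were too dim to test. Among angiogenic and hypoxia genes (2-fold share 41.2%) 6 of 17 rose, led by Pgf, placental growth factor (2.25), and Plod2, a collagen lysyl hydroxylase (1.96), and 9 fell, including Vegfa by 0.92 and Ndrg1 by 1.87.

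Matrix genes differed in both directions. Of 22 tested collagen, laminin and basement membrane genes 10 rose and 4 fell, which was 63.6% called and a 2-fold share of 18.2%, both below the shares over all genes. None of the 4 falls reached 2-fold, and the largest was -0.82. A further 24 listed genes were too dim to test. Lama5, the laminin alpha 5 chain, had log2 levels of 8.88, 10.10 and 11.12 in Oligo1 tumours, against 6.09, 5.83, 6.31, 6.60 and 6.38 in adult cerebellum. Tumour 4 was the lowest and tumour 2 the highest tumour, and all 80 brighter probe sets rose (difference 3.79, SE 0.36, adjusted p = 3.6e-08). Col11a1, a fibrillar collagen, rose by 1.67 and Col4a1, of vessel basement membrane, by 1.38, and fibronectin's gene Fn1 did not pass (0.09). Of 33 matrix proteases and inhibitors 14 rose and 15 fell (2-fold share 57.6%). Mmp2, gelatinase A, had levels of 9.26, 9.47 and 10.16 in Oligo1 tumours, against 6.70, 6.47, 6.81, 7.24 and 7.20 in adult cerebellum, with a gap of 2.02 between the groups (difference 2.73, SE 0.38, adjusted p = 1.84e-06). Its activator Mmp14 rose by 1.93 and the inhibitor Timp1 by 1.65, and the neuronal Adam11 and Adam23 fell (-2.28 and -2.10). Of 21 fibroblast and meningeal genes (2-fold share 33.3%) 7 rose, Fbln2 (1.92) and Postn (1.16) among them, and 5 fell, led by Ptgds, prostaglandin D synthase (-2.83). For Postn all arrays of both groups lay below the filter value (at most 7.20, in Oligo1 tumours).

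Glial genes were lower with exceptions. Of 21 astrocyte and Bergmann glia genes 17 fell and 1 rose, with a median of -1.49 and a 2-fold share of 66.7%. Gfap, the filament of reactive astrocytes, was the one that rose, with log2 levels of 9.11, 10.32 and 11.08 in Oligo1 tumours, against 8.80, 9.03, 8.14, 8.81 and 8.99 in adult cerebellum. The groups were separated by only 0.08 (difference 1.45, SE 0.35, adjusted p = 0.000966). Ntsr2, a neurotensin receptor of astrocytes, fell by 3.25 and Gjb6, connexin 30, by 2.45, and Vim (-0.05) and Sox9 (0.10) did not pass. Of 16 myelin and oligodendrocyte genes 14 fell and none rose, with a median of -2.11 and a 2-fold share of 75%. When genes were kept by their mean over the 13 arrays instead, 9131 genes were tested, of which 3263 were higher and 3043 lower. Of the listed myelin and oligodendrocyte genes then kept, whose number is not given here, 7 fell and none rose. Ermn had levels of 4.09, 4.56 and 6.55 in Oligo1 tumours, against 8.88, 8.57, 8.50, 9.05 and 9.20 in adult cerebellum. Tumours 6 to 8 were the highest tumours, below every adult array (difference -3.74, SE 0.58, adjusted p = 7.07e-06). Mag and Mog, both of the myelin surface, fell (-3.26 and -2.98). Of 13 oligodendrocyte precursor genes 6 passed (46.2%, against 70.3% of all genes) and 7 did not, with a 2-fold share of 30.8%. Those that rose were 4, Pdgfra, Olig2 (1.71), Cspg4 and C1ql1, and 2 fell, each by less than 2-fold. The mean log2 level of the list was 8.02 to 9.48 in Oligo1 tumours, against 7.87 to 8.23 in adult cerebellum. Tumour 1, the lowest tumour, lay within the adult range. C1ql1, a secreted C1q-like protein, had levels of 10.93, 11.33 and 11.55 in Oligo1 tumours, against 7.72, 7.84, 6.88, 7.14 and 8.02 in adult cerebellum, with a gap of 2.92 (difference 3.79, adjusted p = 1.62e-07).

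Genes of the choroid plexus, the epithelium that makes cerebrospinal fluid, varied within both groups. The mean log2 level of its 6 tested genes was 6.45 to 8.67 in tumours 1 to 7 and 10.23 in tumour 8, against 6.88 to 7.76 in 3 adult arrays and 10.17 and 10.45 in those of postnatal day 122 and without a day. Kcnj13, a potassium channel of that epithelium, passed as lower (-2.89, adjusted p = 0.00265) although its groups overlapped. No gene of the lymphocyte list or of the erythrocyte and platelet list was bright enough to test.

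**Figure D4:**
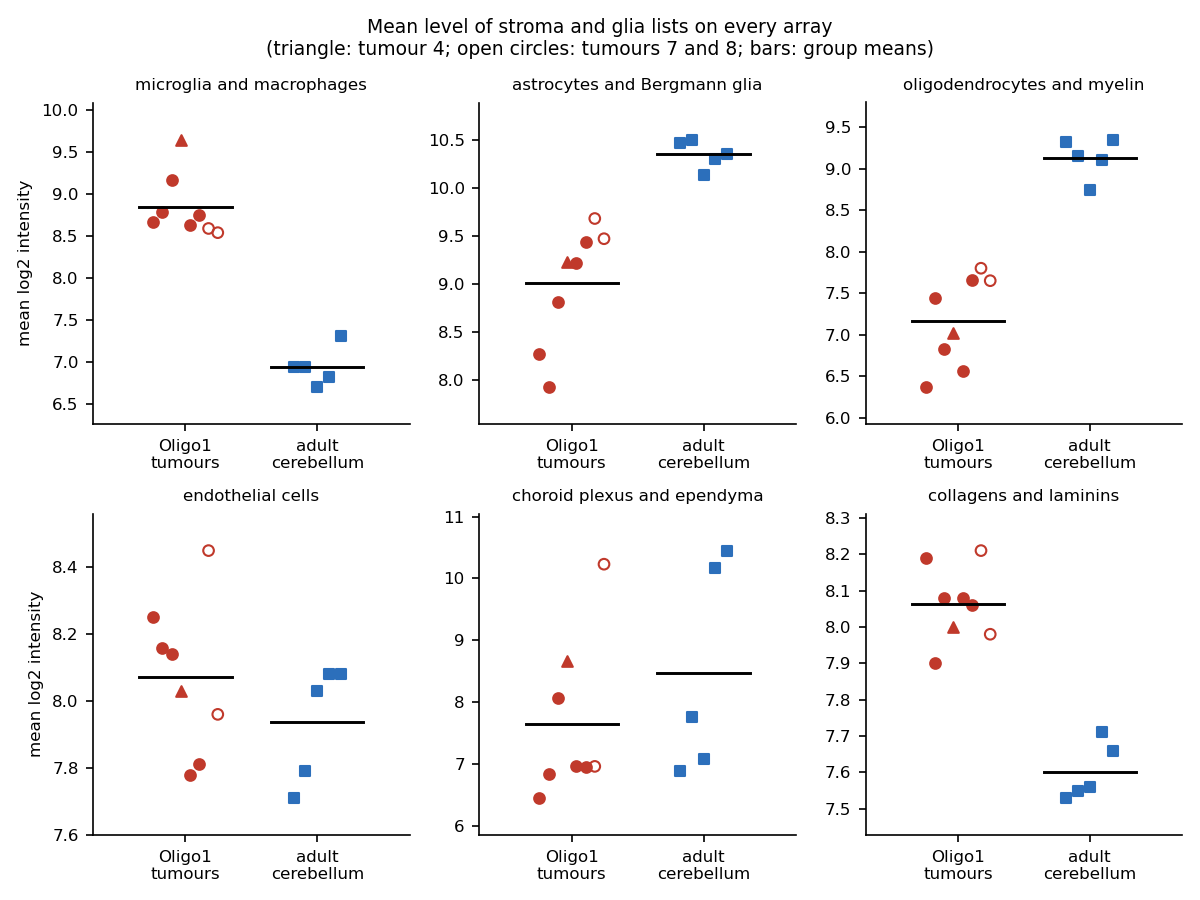
Mean log2 level of 6 stroma and glia lists on every array, Oligo1 tumours (8 points, left) and adult cerebellum (5 points, right), with group means as bars. The macrophage list is higher in all tumours, with tumour 4 (triangle) on top, the collagen, laminin and basement membrane list is also higher in all tumours, the astrocyte and myelin lists are lower in all tumours, and the endothelial and choroid plexus lists overlap between the groups.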

How the data were processed

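RNA of 24 mouse cerebellar samples was hybridised to 1 array each. The authors deposited log2 intensities of 241576 probe sets, which the submitters' processing notes credit to RMA (oligo 1.14, R 2.15). RMA subtracts background and quantile-normalizes arrays, so shifts shared by most genes are removed. Masking and build were not given in the sources used here. The number of sample columns left out was 0. The platform annotation gave 1 symbol to 213361 probe sets, several to 5107 and none to 23108. Only the first kind was used, with 2349 symbols updated from RefSeq synonyms (GRCm38.p6), giving 20848 genes, each the median polish of its probe sets. Genes above the table's median (7.61) on at least 3 arrays were tested (10963).

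Samples were grouped by titles and ages. limma 3.58.1 (R 4.3.3) fitted 4 groups over all 24 arrays, and a gene passed at a Benjamini-Hochberg adjusted p under 0.05. The groups were Oligo1 tumours, hGFAP tumours, developing cerebellum and adult cerebellum. The 3 developing arrays, of embryonic days 15 and 18 and postnatal day 0, counted as replicates of 1 group. Each SE and p-value rests on a spread shared by the 4 groups. With only the Oligo1 and adult arrays fitted, 7792 genes passed. Data were simulated for this comparison over 10963 genes, with independent normal noise and known changes. Recovered were 37.9% of 66 genes changed by 0.5 (log2), 76.1% of 67 changed by 1 and 100% of 67 changed by 2. There were 9 false calls among the unchanged genes. In the real data 70.3% of genes passed, a far larger share than was changed here, so these figures need not hold for it. Replicates are recorded as biological for the tumours. For the adult arrays nothing says that each is a separate animal, so p-values measure the spread between samples within the 4 groups. The number of arrays limits the precision.

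The members and gene lists were chosen with earlier results of these data known. Named genes were Gnas, the 20 largest rises and falls without overlap outside the lineage lists, and up to 4 rises, 4 falls and 2 members nearest 0 of each list. Outside that rule were Hk1, Ldha, Ldhb, Spi1, Id1, Id3, Tgfbr3, Tgfb3 and Fgf13. Alternatives covered gene summaries, filters, scaling, the fit, weights, strain, array name set, the replicate block and each array left out. Leaving out tumours 7 and 8 together, leaving out hGFAP arrays and the check of tumours against means of others were added after seeing the data. The replicate numbers of tumours 1 and 2 and the postnatal day 60 arrays did not deviate together across genes (r = 0.032 and 0.045). Figures used matplotlib 3.10.9.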

Additional observations from a re-analysis of the deposited data

Results flagged for a closer look

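The Oligo1 tumours differed from the hGFAP tumours for 58 of the 205 named genes (limma adjusted p under 0.05, against 18.9% of all genes). Most of these genes were named for large differences from adult cerebellum on the same Oligo1 arrays. That choice favours a difference here too, so the count cannot be weighed against the share over all genes. One hGFAP tumour, replicate 5, stood apart, with a mean correlation of 0.927 with the adult arrays, against 0.583 to 0.846 for the other 7. Tumour 4 of that line lay close to a weighted mean of its tumours 2 and 3 across genes (residual SD 0.159, against 0.167 to 0.632 for the others), much as Oligo1 tumour 3 did in its group. Whether they share tissue or RNA with other tumours was not tested. Of the 58 genes 30 passed without replicate 5, and 15 passed whichever single tumour of the 16 was left out. Hpca had the lowest adjusted p of the 15, at 12.02 ± 0.22 in Oligo1 tumours, against 10.49 ± 0.51 in hGFAP tumours (SD, n = 8 each; difference 1.53, adjusted p = 3.51e-05) and 10.36 ± 0.21 in adult cerebellum (SD, n = 5). Ror2 averaged 8.87 ± 0.25 in Oligo1 tumours and 7.98 ± 0.29 in hGFAP tumours (SD, n = 8 each; difference 0.89, limma adjusted p = 0.000291). Lama5 averaged 10.03 ± 0.73 in Oligo1 tumours and 8.34 ± 0.79 in hGFAP tumours (SD, n = 8 each; difference 1.69, limma adjusted p = 0.00478). The others of the 15, with Oligo1 minus hGFAP differences on the log2 scale, were Celsr1 (0.81), Fbln2 (0.71) and Slc25a13 (0.85), and on the lower side Fa2h (-1.71), Fgf11 (-1.01), Gdf10 (-1.63), Id4 (-1.19), Manba (-0.40), Mog (-1.65), Scd1 (-1.74), Slc6a9 (-1.20) and Slc7a11 (-1.17). Genes that passed without replicate 5 but not in every such fit were Col4a1 (0.56), Ctps (0.68), Gpc3 (1.04), Prdx4 (0.63) and Rpia (0.51), and on the lower side Adam23 (-0.99), Ermn (-1.83), Fgf14 (-1.19), Gfap (-0.96), Kcnip4 (-2.03), Me3 (-0.98), Sirpa (-0.58), Slc25a12 (-0.46), Smad9 (-0.84) and Steap2 (-1.16). Gfap was the one gene higher in Oligo1 tumours than in adult cerebellum and lower than in hGFAP tumours.

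The other 28 differences did not pass without that hGFAP tumour (adjusted p of 0.0516 to 0.101) and kept their sign. They were Dusp6 (0.57), Itga9 (0.75), Pgf (0.96) and Pgls (0.50) on the higher side. On the lower side they were Adam11 (-0.88), Aldh1l1 (-0.74), Arhgef33 (-2.26), Cacna1g (-1.50), Cacna2d2 (-1.56), Calb1 (-2.72), Calb2 (-1.40), Cd47 (-0.60), Cntn6 (-1.24), Eno2 (-1.85), Fgf12 (-0.86), Gaa (-0.69), Gjb6 (-1.45), Hapln4 (-1.28), Hk1 (-0.81), Inpp4a (-0.68), Itga3 (-0.92), Mag (-1.58), Mgst3 (-0.63), Pfkp (-1.01), Shisa6 (-1.62), Slc12a5 (-1.65), Slc6a17 (-1.68) and Spock2 (-0.83).

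A single array stood far from the rest of its group by Dixon's test in 29 of 410 tests (205 genes in each of 2 groups), where chance gives about 1 in 20. Tumour 6 accounted for 10 of the 16 cases among Oligo1 tumours, with log2 levels of Eif2ak3 (highest, 9.50), Fzd2 (lowest, 6.17), Gpc2 (lowest, 7.61), Gpx4 (highest, 9.95), Nt5e (highest, 9.33), Osmr (highest, 9.43), Pgf (lowest, 6.26), Rrm2b (lowest, 6.91), Sox18 (lowest, 7.85) and Sstr2 (lowest, 9.98). The others were Crabp1 in tumour 2 (highest, 9.55), Flt1 in tumour 7 (highest, 8.73), Igsf9 in tumour 1 (highest, 8.34), Olig2 in tumour 4 (lowest, 8.49), P2ry12 in tumour 4 (highest, 8.55), Sdk1 in tumour 5 (highest, 8.20). Among the adult arrays the one of postnatal day 95 accounted for 8 of 13 cases, Gfap (lowest, 8.14), Pdgfra (lowest, 7.12), Pdia4 (lowest, 9.38), Ppargc1a (lowest, 9.91), Pycr1 (highest, 7.49), Slc29a1 (highest, 8.43), Sod1 (lowest, 11.65) and Txnip (lowest, 7.04). The others were Adgre1 in the array without a day (highest, 5.91), Hapln4 in postnatal day 60 replicate 1 (highest, 9.60), Idi1 in the array without a day (highest, 9.65), Itgb2 in postnatal day 60 replicate 2 (lowest, 5.41), Stat5b in postnatal day 60 replicate 1 (lowest, 8.34).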

How the results depend on the processing

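Under the 29 alternatives, no named gene that passed reversed its direction. Of 184 named genes that passed, 174 passed under every alternative that kept them, and the 9 lost within the later run of array names were Aldoc, Bmp6, Calb1, Cbs, Flt1, Kcnj13, Nefl, Ptgds and Rpia. Cldn5 was lost under 8 alternatives. Ldha (0.39 to 0.62), Selplg (0.57), Sox9 (0.29) and Epha7 (0.32) passed under some alternatives. The replicate block gave 7791 genes and changed no call of a named gene; its correlation was 0.0662, and the shared numbers are not taken as pairs. A stricter filter on dim genes left 5536 genes to test, of which 4232 passed, 2098 higher and 2134 lower. With it 29 surface genes were higher and 58 lower, 25 pathway genes higher and 63 lower, 76 metabolic genes higher, and 31 stroma genes higher and 43 lower. A filter on the mean of the 13 arrays left 36 surface and 41 stroma genes higher. Within the later run of array names 2470 genes were higher, 33 of them in pathway and 81 in metabolic lists. With a 2-fold minimum 3216 genes passed, 1550 higher and 1666 lower; 58 surface genes were lower, 23 pathway genes higher and 58 lower, 63 metabolic genes higher and 78 lower, and 45 stroma genes higher and 51 lower. Leaving out 1 Oligo1 or adult array gave 7359 to 7887 genes, and leaving out 1 hGFAP array, which only shares the estimate of the spread, 7634 to 8073.

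The difference between Oligo1 and hGFAP tumours was far less stable. It gave 2074 genes, 266 with a 2-fold minimum, 4334 with array weights, and 519 to 3173 with 1 array left out. It fell to 519, 1002 and 730 without Oligo1 tumours 1, 2 and 3, and to 534, 1151 and 557 without hGFAP tumours 3, 5 and 6, and was 3173 without hGFAP tumour 7. The cause was not tested. Signal over background limits genes whose adult or tumour arrays all lie below 7.61, as 1148 of the higher and 618 of the lower genes did in adult cerebellum and in Oligo1 tumours. No tumour with intact Gnas and no age of the tumours is at hand.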
